A study of Mus musculus with 7 samples.

Results

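The transforming growth factor beta (TGF-beta) and bone morphogenetic protein (BMP) pathway is described here as 39 genes chosen by name, of 53458 genes with values in the series. By role they are 7 ligands, 4 genes of ligand latency and presentation, 6 type I and 4 type II receptors, 1 co-receptor, 2 receptor inhibitors, 5 receptor-regulated Smads, 1 common Smad, 2 inhibitory Smads, 4 nuclear co-repressors and 3 ubiquitin ligases. RNA was sequenced from long-term haematopoietic stem cells (LT-HSCs) of aged C57/BL6 mice, sorted from bone marrow as lineage-negative, Sca1+, cKit+, Flt3-, CD48- and CD150+ cells. One group was wild type (Srp72+/+, WT, n = 4) and the other heterozygous for Srp72 (Srp72+/-, n = 3), with 1 library per mouse, and no treatment was named for either. Srp72 encodes a protein of the signal recognition particle, which directs ribosomes making secreted and membrane proteins, such as the ligands and receptors described here, to the endoplasmic reticulum. Which part of Srp72 was altered, and how many months old the mice were, was not stated in the labels.

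TGF-beta family ligands are secreted dimers. TGF-beta itself is held latent by its own propeptide and by anchoring proteins until it is released. A ligand joins type II and type I receptor kinases, and the type I kinase phosphorylates receptor-regulated Smads (Smad2 and Smad3 for TGF-beta and activin, Smad1, Smad5 and Smad9 for BMPs), which bind Smad4 and act on genes in the nucleus. Inhibitory Smads, Ski-family co-repressors and ubiquitin ligases restrain the signal. In the marrow, TGF-beta is known as a signal that holds stem cells in quiescence.

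The libraries held between 18054322 and 35247472 estimated reads. Levels between libraries are given in CPM, read counts set relative to library size after TMM scaling (which evens out composition), and levels between genes in TPM, which also corrects for transcript length. Srp72 measured 99.6, 136.6, 103.0 and 88.4 CPM for WT 1 to 4, against 71.9, 45.7 and 109.8 CPM for Srp72+/- 1 to 3, so the groups overlapped (log2 fold change -0.50, standard error 0.32, two-sided exact permutation p = 0.229, where 35 splits allow no p below 0.0286). WT 2 stood apart from its label. All 15 genes of the LT-HSC marker list other than the negative sort markers Flt3 and Cd48 were lowest there. They summed to 262 CPM in WT 2, 1620 CPM in Srp72+/- 1 and 2627 to 3222 CPM in the remaining libraries. Of the 15, Cd34 was the least reduced in WT 2, at 0.548 of the mean of the other WT libraries. Cd48 measured 44.8 CPM in WT 2 and 25.9 CPM in Srp72+/- 1, against 0.504 to 7.63 CPM in the others. Flt3 measured 6.84 CPM in WT 2 and 13.3 CPM in Srp72+/- 1, against 1.55 to 5.61 CPM in the others. WT 2 and, next to it, Srp72+/- 1 held the most neutrophil transcripts (9 markers summing to 39340 and 12300 CPM, against 122.6 to 8710 CPM in the others), erythroid transcripts (8625 and 6276 CPM against 136.6 to 1162 CPM) and monocyte and macrophage transcripts (1149 and 481 CPM against 14.6 to 215.9 CPM). These libraries also had the highest sums of 9 B cell markers (10270 and 4219 CPM against 51.95 to 1295 CPM), of which 6 were highest in WT 2. Many results that rest on WT 2 are therefore given with and without it. The other fits hold all 7 libraries unless stated. In bulk libraries fewer cells of a type and less RNA per cell cannot be told apart.

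No pathway gene passed the test between the genotypes. Of the 39 genes, 34 passed the filter on low counts, and 0 of these 34 passed a false discovery rate (FDR) of 0.05 in the quasi-likelihood test of edgeR, where the background was 0% of 20314 tested genes. DESeq2 called 0.0447% of genes and none of the 34. The adjusted p of every tested pathway gene was 0.9998, and the smallest unadjusted p was 0.093, for Smad7. None of the 34 had an unadjusted p under 0.05, where 1.8% of all tested genes did, 1.01% higher and 0.788% lower in Srp72+/-. Fitted values were lower in Srp72+/- for 24 of the 34 genes and higher for 10, and their log2 fold changes had a median of -0.20. Over all tested genes 50.7% were lower and the median was -0.01. Leaving out 1 library in turn moved the median of the pathway genes between -0.27 and -0.06, and without WT 2 it was -0.17, with 24 of 34 genes lower against 46.9% of all genes. Without both WT 2 and Srp72+/- 1 the median was -0.10, with 24 of 35 genes lower against 10267 of all 21073 genes. Only Smad2 had libraries that did not overlap between the genotypes, 1 of 34 genes against 3.57% of all tested genes (1.49% lower and 2.08% higher in Srp72+/-).

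**Figure D1:**
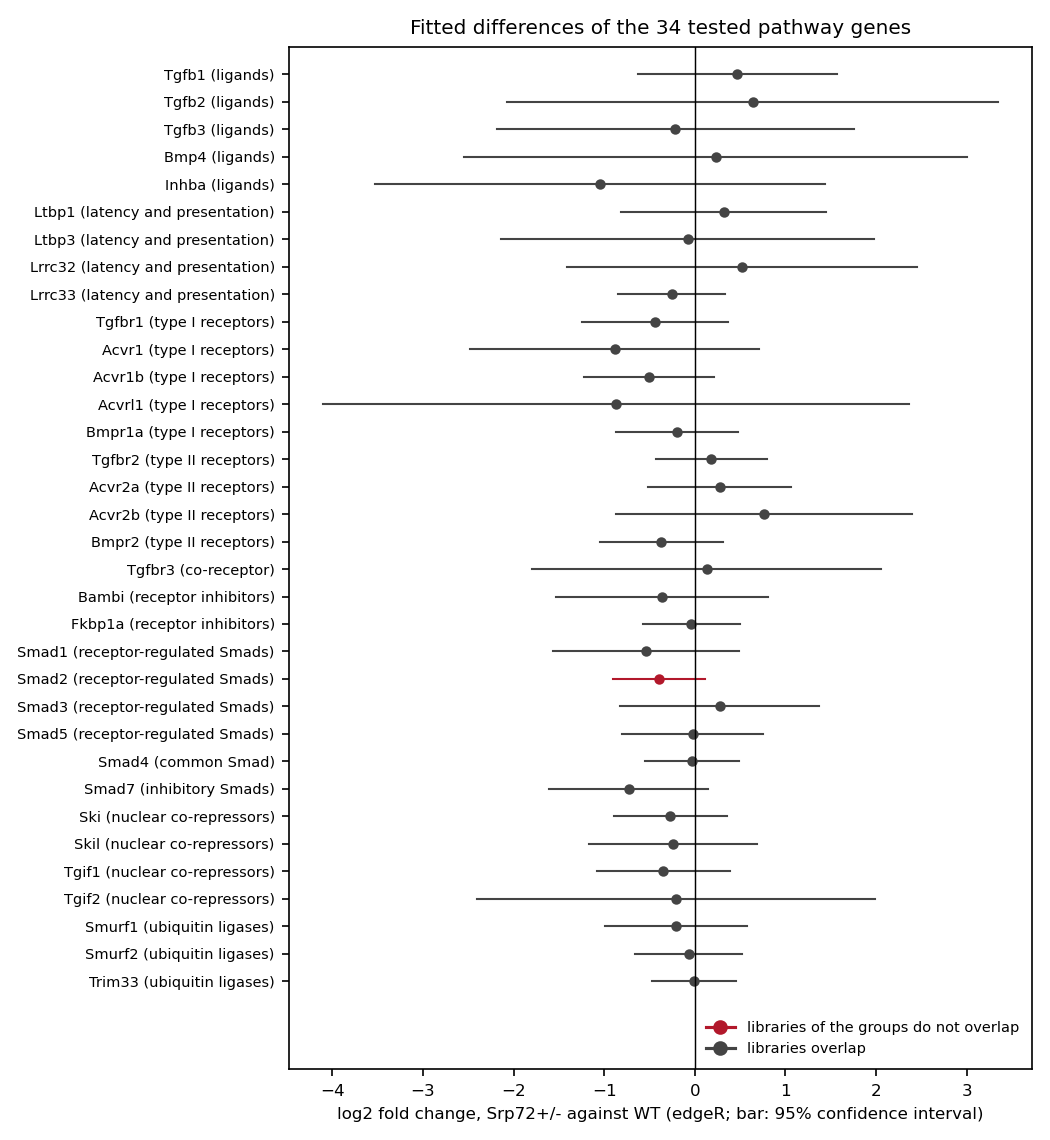
Fitted log2 fold changes of the 34 tested pathway genes (x axis, Srp72+/- against WT, 0 means no difference) by gene and role (y axis), with 95% confidence intervals from edgeR. Every interval includes 0, and Smad2 (red) is the gene whose libraries do not overlap between the genotypes.

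The levels of the members spanned a wide range. In TPM the highest median over the 7 libraries belonged to Fkbp1a at 41.9 TPM, which encodes FKBP12, a protein that binds type I receptors and keeps them from firing without ligand. It was followed by Tgfb1 at 27.8 TPM, Smad3 at 21.6 TPM, Lrrc33 at 18.9 TPM and Trim33 at 16.9 TPM, whose ranges over the libraries overlapped one another. Without WT 2 the medians of Lrrc33 and Trim33 were 18.5 and 19.2 TPM, so their order turned. All receptor kinases lay lower, led by Bmpr2 at 4.97 TPM, Tgfbr1 at 3.22 TPM, Acvr1b at 2.50 TPM and Tgfbr2 at 2.42 TPM. These values sum all annotated transcripts of a gene, non-coding ones included. A non-coding Fkbp1a transcript took 10.6% to 62.1% of its TPM. The main coding transcript of Smad3 took 13.45% to 28.2% of its TPM but 80.7% to 91.3% of its reads. That of Bmpr2 took 62.6% to 90.55% of its TPM. The order therefore need not hold for single coding transcripts. At the low end 5 members did not pass the filter. Bmpr1b, a BMP type I receptor gene, had 0 reads in all 7 libraries, which allows up to 3 reads or 0.091 to 0.192 CPM in a library. Bmp2, a ligand gene, had at most 11 reads in a library, Smad9 between 4.1 and 14 reads, and Smad6 between 0 and 38 reads.

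**Figure D2:**
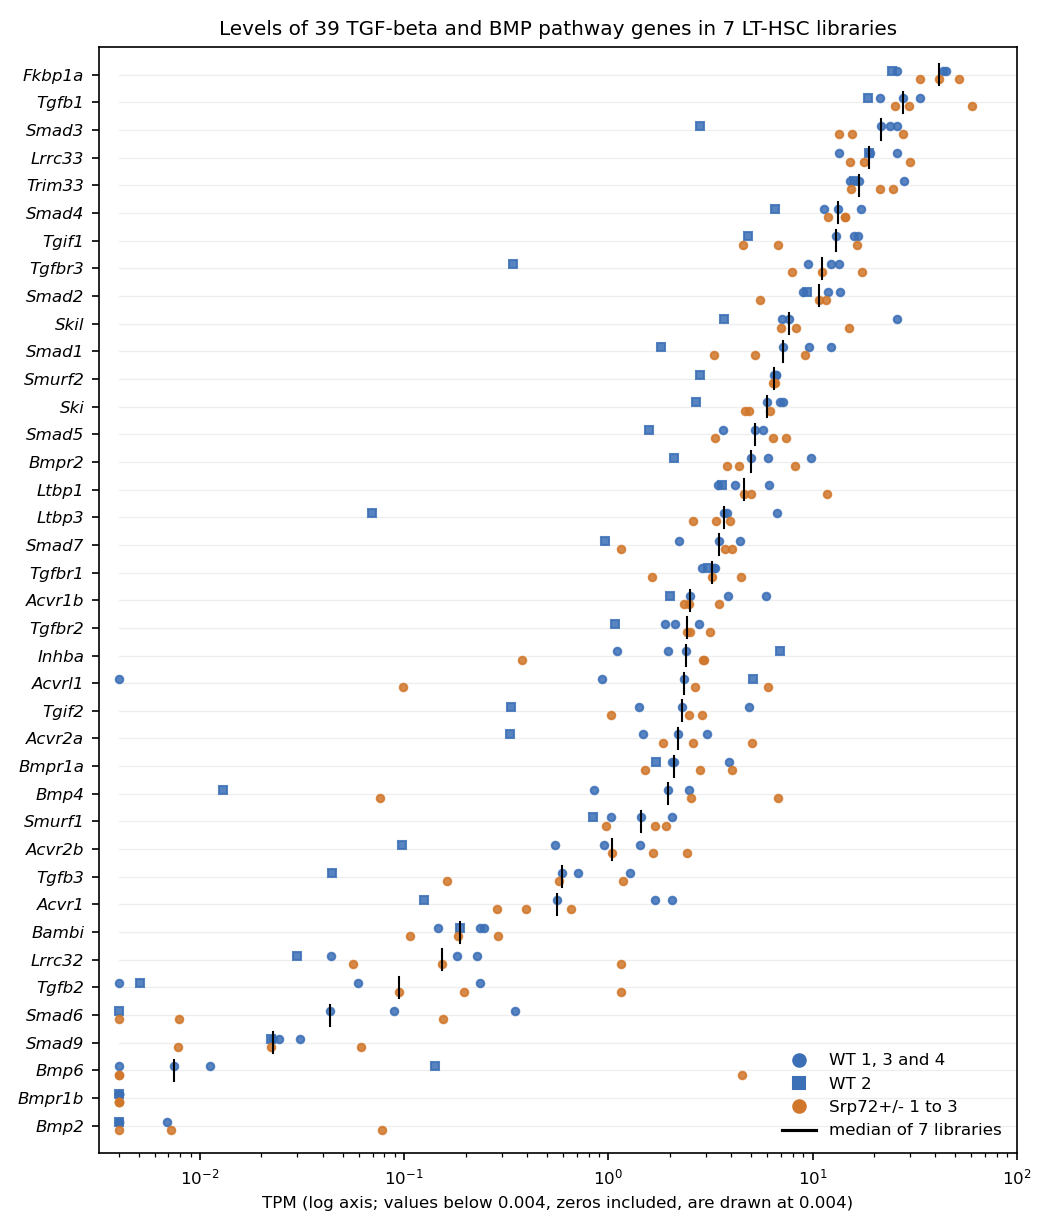
TPM (x axis, log scale) of the 39 pathway genes (y axis, ordered by median) in each of the 7 libraries, with WT in blue, WT 2 as a square, Srp72+/- in orange and the median as a black line. Fkbp1a and Tgfb1 lead, and the square of WT 2 lies far to the left for Tgfbr3, Ltbp3, Bmp4, Acvr2a and Smad3.

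Among the ligands, Tgfb1 had the highest TPM, and 1 library set the direction of its difference. Tgfb1 (chromosome 7, 25687002 to 25705077, plus strand of GRCm38) encodes TGF-beta 1, the main isoform in blood cells. It measured 86.5, 76.9, 55.5 and 65.3 CPM for WT 1 to 4, against 65.1, 40.7 and 189.7 CPM for Srp72+/- 1 to 3. Srp72+/- 3 was the highest of all libraries, Srp72+/- 2 the lowest, and the groups overlapped. The fitted fold was 1.39 (95% confidence interval 0.646 to 2.98), and the log2 fold change was 0.47 with all libraries and -0.43 without Srp72+/- 3. The same library had the highest sum of 9 megakaryocyte and platelet markers, 1339 CPM against 62.2 to 812 CPM in the other 6, with Pf4 at 405 CPM against 9.02 to 119.0 CPM. Their part in the level of Tgfb1 was not tested. The main coding transcript of Tgfb1 took 83.4% of the gene's reads in Srp72+/- 3 and between 70.3% and 87.7% in the others. On the TPM scale that transcript took 48.3% in Srp72+/- 3 and between 35.5% and 56.4% in the others.

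Inhba was highest in WT 2 and Srp72+/- 1, which also held the most neutrophil transcripts. Inhba (chromosome 13, 16011851 to 16031621, plus strand) encodes the beta A subunit that forms activin A. It measured 4.93, 97.3, 12.8 and 11.6 CPM for WT 1 to 4, against 28.0, 14.95 and 3.12 CPM for Srp72+/- 1 to 3. The same libraries ranked first and second for summed monocyte and macrophage, erythroid and B cell markers. The part of any of these cells in the level was not tested. The log2 fold change was -1.05 (standard error 1.08), and without WT 2 it was 0.65. The other ligands were low. Tgfb3 lay between 0.512 and 8.78 CPM and Bmp4 between 0.064 and 5.85 CPM, both lowest in WT 2, Tgfb2 between 0 and 0.892 CPM, and Bmp6 had 115 of its reads in Srp72+/- 2 and 26.1 in WT 2 with at most 2 reads in any other library.

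Of the genes for latency and presentation, Lrrc33 was highest and Ltbp3 lowest in WT 2. Lrrc33, listed in the annotation as Nrros (chromosome 16, 32142785 to 32165594, minus strand), encodes a membrane protein that holds latent TGF-beta 1 on myeloid cells. It measured 80.8, 145.2, 92.1 and 88.1 CPM for WT 1 to 4, against 83.1, 77.5 and 94.9 CPM for Srp72+/- 1 to 3. WT 2 was high and the other 6 libraries were close together, with a coefficient of variation of 7.85%. Ltbp3 (chromosome 19, 5740904 to 5758532, plus strand) encodes a matrix protein that binds the latent ligand. Chosen for the text after its values were seen, it measured 40.5, 1.151, 66.2 and 42.7 CPM for WT 1 to 4, against 33.5, 35.9 and 37.6 CPM for Srp72+/- 1 to 3. WT 2 was nearly without it, 43.3 times below the mean of the other WT libraries, and without WT 2 all Srp72+/- libraries lay under all WT libraries (log2 fold change -0.48, unadjusted p = 0.097 in edgeR). With Srp72+/- 1 left out as well, the log2 fold change was -0.44 (edgeR, unadjusted p = 0.180). Ltbp1, a related binding protein gene, measured 11.3, 5.88, 3.02 and 5.85 CPM for WT, against 6.35, 7.81 and 10.2 CPM in Srp72+/-. Lrrc32, which encodes the anchor GARP, lay between 0.336 and 2.86 CPM.

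The upstream sequences of Ltbp3 and Inhba are shown because these tested members lay furthest below and furthest above the other WT libraries in WT 2. Each is the 250 bases before the transcription start in RefSeq (GRCm38.p6), 5′ to 3′ on the plus strand, with motif matches in capitals. The motifs searched on both strands were the Smad box CAGAC, the BMP-Smad element GGCGCC, the GATA motif AGATAA, the ETS motif CCGGAAG and the RUNX motif TGTGGT, none of which overlap in these windows.
Ltbp3, chr19:5740650-5740899: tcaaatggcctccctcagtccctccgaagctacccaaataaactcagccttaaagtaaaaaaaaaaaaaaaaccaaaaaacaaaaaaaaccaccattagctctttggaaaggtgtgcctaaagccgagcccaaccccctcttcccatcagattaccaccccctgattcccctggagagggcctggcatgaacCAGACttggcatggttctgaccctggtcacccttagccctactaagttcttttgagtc
Inhba, chr13:16011601-16011850: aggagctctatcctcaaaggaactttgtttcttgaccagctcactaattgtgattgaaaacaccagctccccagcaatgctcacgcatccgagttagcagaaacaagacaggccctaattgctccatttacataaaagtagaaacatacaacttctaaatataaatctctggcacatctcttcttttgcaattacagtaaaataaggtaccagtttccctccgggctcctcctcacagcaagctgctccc
The Ltbp3 window held 1 Smad box, 58 bases before the start, and the Inhba window held none of these letters. RefSeq windows were matched for 28 of the 39 members (38 windows). The Smad box was in 50% of these windows and in 42.2% of all 32851 windows, GGCGCC in 18.4% and 9.59%, AGATAA in 2.63% and 9.99%, CCGGAAG in 2.63% and 6.91%, and TGTGGT in 5.26% and 14%. A match describes letters and is no evidence of binding.

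All 5 tested type I receptor genes had lower fitted values in Srp72+/-, and none passed the test. The log2 fold changes had a median of -0.50 with all libraries and -0.12 without WT 2, when 4 of 5 were lower. Acvr1b (chromosome 15, 101174067 to 101213684, plus strand), which encodes the activin receptor ALK4, had the smallest p of them. It measured 26.2, 32.2, 55.0 and 42.0 CPM for WT 1 to 4, against 22.2, 28.1 and 31.9 CPM for Srp72+/- 1 to 3, with WT 3 and WT 4 above all others and an overlap of the rest (log2 fold change -0.50, standard error 0.31, edgeR unadjusted p = 0.142). Tgfbr1 (chromosome 4, 47353222 to 47414931, plus strand), which encodes the TGF-beta type I receptor ALK5, measured 31.4, 54.2, 21.7 and 28.3 CPM for WT 1 to 4, against 30.8, 21.5 and 23.1 CPM for Srp72+/- 1 to 3. WT 2 stood above the remaining 6 libraries, which overlapped, and the log2 fold change was -0.43 with it and -0.11 without it. Bmpr1a, the BMP receptor gene for ALK3, lay between 28.1 and 37.7 CPM among WT and from 19.2 and 39.5 CPM in Srp72+/-. Acvr1 (ALK2) lay between 1.34 and 10.7 CPM over all libraries, and Acvrl1 (ALK1, an endothelial receptor) between 0 and 19.5 CPM, highest in WT 2.

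WT 2 was the lowest library for all 4 type II receptor genes and for the co-receptor gene. Bmpr2 (chromosome 1, 59763400 to 59879014, plus strand), the BMP type II receptor gene, measured 194.4, 106.5, 215.8 and 166.1 CPM for WT 1 to 4, against 112.5, 169.8 and 114.7 CPM for Srp72+/- 1 to 3. WT 2, Srp72+/- 1 and Srp72+/- 3 were low and the other 4 high, so the groups overlapped. The log2 fold change was -0.37 (standard error 0.29, edgeR unadjusted p = 0.246), and -0.53 without WT 2 (edgeR, unadjusted p = 0.051, adjusted p = 0.977). With Srp72+/- 1 left out as well, the log2 fold change was -0.43 (edgeR, unadjusted p = 0.136). Acvr2a, an activin receptor gene, measured 14.9, 7.80, 18.2 and 15.7 CPM for WT, against 16.7, 19.2 and 15.5 CPM in Srp72+/-, with WT 2 below the other 6. Tgfbr2, the TGF-beta type II receptor gene, lay between 19.5 and 31.7 CPM among WT and from 26.9 and 36.3 CPM in Srp72+/-, again lowest in WT 2, with a fitted fold of 1.14 (interval 0.744 to 1.73). Its log2 fold change was 0.18 with all libraries and 0.06 without WT 2. Acvr2b lay between 1.09 and 14.98 CPM.

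Tgfbr3 (chromosome 5, 107106570 to 107289629, minus strand), which encodes betaglycan, the co-receptor that presents ligand to the signalling receptors, was nearly missing from WT 2. It measured 159.2, 5.88, 135.4 and 130.9 CPM for WT 1 to 4, against 76.8, 87.2 and 190.2 CPM for Srp72+/- 1 to 3. WT 2 was 24.1 times below the mean of the other WT libraries (141.8 ± 15.2 CPM, SD, n = 3), and among the remaining 6 libraries the Srp72+/- group held both the highest and the lowest values. The log2 fold change was 0.13 (standard error 0.84) and -0.26 without WT 2. Eng, which encodes endoglin, the related co-receptor, had the same lowest library, at 16.6 CPM in WT 2 against 91.9 to 173.2 CPM in the others. Slamf1, the gene of the sorting marker CD150, stood at 4.67 CPM in WT 2 against 31.4 to 73.0 CPM in the others.

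Of the receptor inhibitors, one was abundant and one rare. Fkbp1a (chromosome 2, 151542483 to 151561692, plus strand) measured 83.7, 59.0, 78.7 and 98.9 CPM for WT 1 to 4, against 69.0, 78.1 and 87.1 CPM for Srp72+/- 1 to 3, with overlapping groups and a log2 fold change of -0.04 (standard error 0.23). Without WT 2, its lowest library, the log2 fold change was -0.15. Bambi, which encodes a receptor-like protein with no kinase that blocks the complex, measured 3.14, 3.77, 2.83 and 1.93 CPM for WT, against 1.27, 2.77 and 2.76 CPM in Srp72+/-.

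The receptor-regulated Smads of the TGF-beta branch stood differently in WT 2. Smad2 (chromosome 18, 76241580 to 76310963, plus strand) measured 43.7, 45.8, 39.9 and 39.3 CPM for WT 1 to 4, against 35.1, 26.0 and 34.99 CPM for Srp72+/- 1 to 3. Every Srp72+/- library lay under every WT library, with means of 42.2 ± 3.1 CPM (SD, n = 4) and 32.0 ± 5.2 CPM (SD, n = 3). The fitted fold was 0.760 (95% confidence interval 0.534 to 1.08; log2 fold change -0.40, standard error 0.22), which did not pass the test (edgeR, unadjusted p = 0.111, adjusted p = 0.9998). The gap between the nearest libraries of the groups, 39.3 and 35.1 CPM, was smaller than the spread within Srp72+/-, and in TPM the groups overlapped, with 9.03 to 13.6 TPM in WT and 5.52 to 11.6 TPM in Srp72+/-. WT 2 was its highest library.

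Smad3 (chromosome 9, 63646767 to 63757994, minus strand) measured 75.0, 16.0, 42.7 and 61.1 CPM for WT 1 to 4, against 39.4, 67.4 and 70.1 CPM for Srp72+/- 1 to 3. WT 2 was lowest and Srp72+/- 1 second lowest, and the groups overlapped (fitted fold 1.21, interval 0.566 to 2.59). The log2 fold change was 0.28 with all libraries and -0.01 without WT 2. In WT 2 the level of Smad3 was 0.268 of the mean of the other WT libraries, and that of Smad2 1.12.

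For the BMP branch, Smad5 (chromosome 13, 56703010 to 56742377, plus strand) and Smad1 carried nearly all reads, since Smad9 was close to absent. Smad1 (chromosome 8, 79338395 to 79399518, minus strand), chosen for the text after its values were seen, measured 66.0, 16.8, 40.7 and 58.6 CPM for WT 1 to 4, against 28.4, 40.6 and 25.2 CPM for Srp72+/- 1 to 3. WT 2 was the lowest of all libraries, and without it the groups did not overlap, although Srp72+/- 2 at 40.56 CPM lay just under WT 3 at 40.67 CPM. The log2 fold change was -0.54 (edgeR, unadjusted p = 0.266), and -0.81 without WT 2 (edgeR, unadjusted p = 0.019, adjusted p = 0.977). With Srp72+/- 1 left out as well, the log2 fold change was -0.75 (edgeR, unadjusted p = 0.053). Smad5 lay between 39.4 and 83.1 CPM among WT and from 48.4 and 83.5 CPM in Srp72+/-, with a fitted fold of 0.984 (interval 0.575 to 1.69). Its log2 fold change was -0.02 with all libraries and -0.19 without WT 2, its lowest library.

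Smad4 (chromosome 18, 73639009 to 73703780, minus strand), the shared partner of both branches, was among the steadiest members. It measured 38.3, 34.1, 36.4 and 40.7 CPM for WT 1 to 4, against 36.6, 29.9 and 43.3 CPM for Srp72+/- 1 to 3, with a coefficient of variation of 11.8% over all 7 libraries. The fitted fold was 0.979 with an interval of 0.685 to 1.40.

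Smad7 (chromosome 18, 75367529 to 75395935, plus strand), an inhibitory Smad that recruits ubiquitin ligases to the receptors and is itself induced by the pathway, had the smallest p of all members. It measured 19.1, 11.7, 29.5 and 27.3 CPM for WT 1 to 4, against 15.6, 14.0 and 10.04 CPM for Srp72+/- 1 to 3. The Srp72+/- libraries lay under 3 of the WT libraries, and WT 2 lay among them. The means were 21.9 ± 8.1 CPM (SD, n = 4) and 13.2 ± 2.9 CPM (SD, n = 3), with a fitted fold of 0.603 (interval 0.328 to 1.11; log2 fold change -0.73, standard error 0.38, edgeR unadjusted p = 0.093, adjusted p = 0.9998). Without WT 2 the log2 fold change was -0.93 (edgeR, unadjusted p = 0.016, adjusted p = 0.977), and with an offset for transcript length it was -0.12. Smad6, the inhibitory Smad of the BMP branch, had 9, 0, 38 and 6 reads in WT 1 to 4 and 0, 17 and 2 reads in Srp72+/- 1 to 3, too few to compare.

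Without WT 2, 5 of 34 members had Srp72+/- libraries that all lay under the WT libraries (Ltbp3, Smad1, Smad2, Smad7 and Tgif1), and 0 of 34 lay above. Among all 19856 genes tested without WT 2, 10.1% did not overlap, 5.33% lay under and 4.74% above, and 4.84% had an unadjusted p under 0.05, as 2 of the 34 members did. None of the 34 passed an FDR of 0.05 in that set of libraries, where 0 of 19856 genes did. Smad2 was the 1 gene of the 5 that was separated with all libraries. Without both WT 2 and Srp72+/- 1, 1 of 35 members had an unadjusted p under 0.05 in edgeR, against 849 of 21073 genes.

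**Figure D3:**
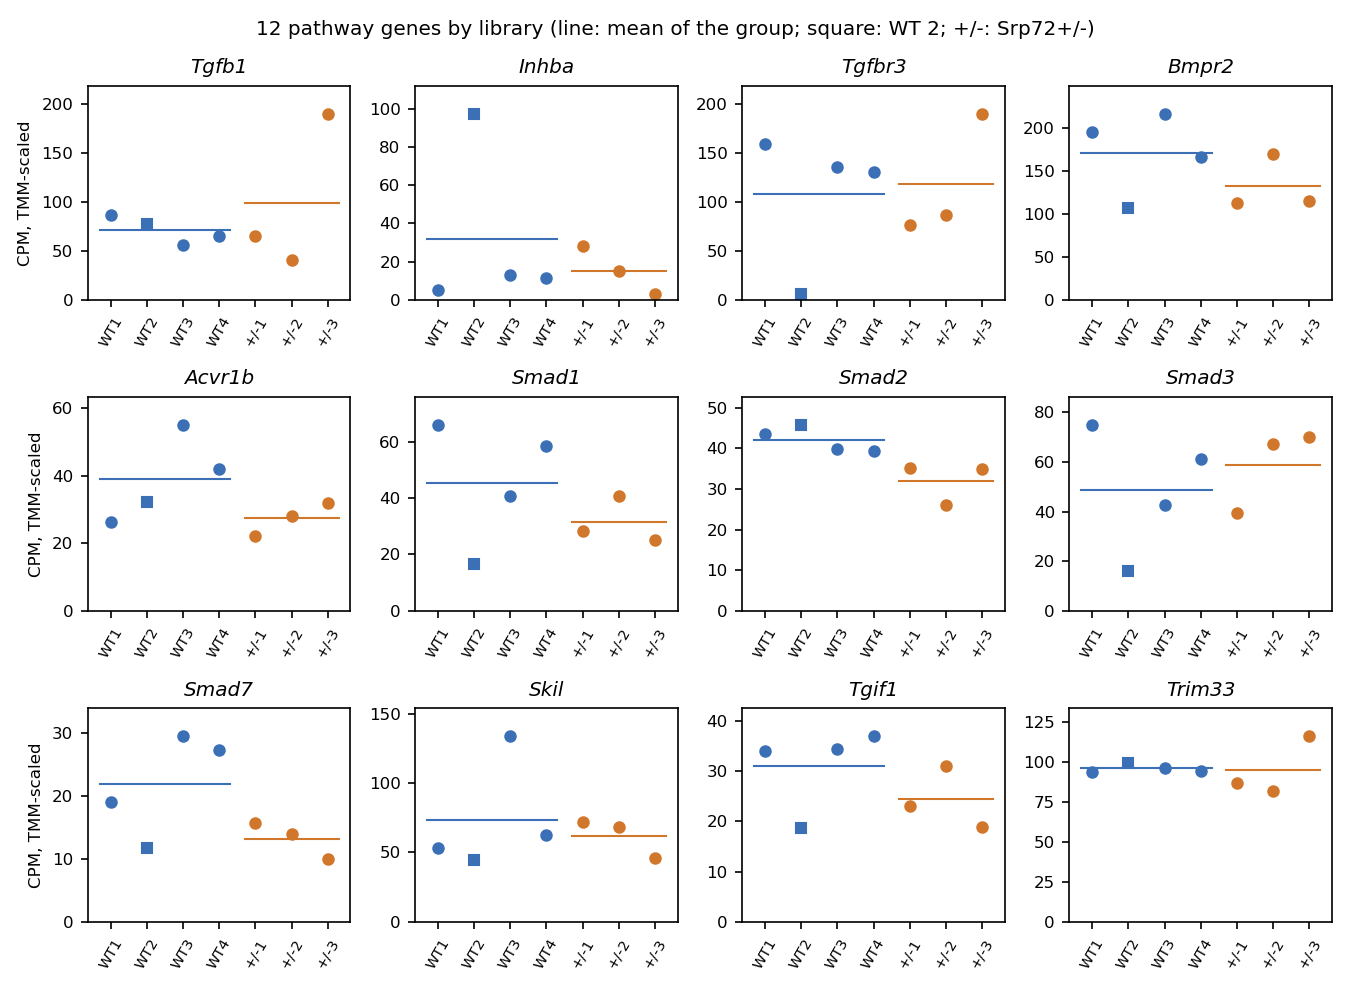
CPM after TMM scaling (y axis, from 0) of 12 pathway genes in WT 1 to 4 (blue, WT 2 as a square) and Srp72+/- 1 to 3 (orange), with a line at each group mean. WT 2 is near 0 for Tgfbr3 and highest for Inhba, Srp72+/- 3 is highest for Tgfb1, and WT 3 is highest for Skil at 134.1 CPM.

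The 4 nuclear co-repressor genes had lower fitted values in Srp72+/- by -0.35 to -0.21 on the log2 scale, and none passed the test. Their median was -0.26 with all libraries and -0.47 without WT 2, the lowest library for each of them. Without WT 3 the median was -0.12 and 2 of the 4 were lower. Tgif1 (chromosome 17, 70844205 to 70853546, minus strand), which encodes a homeobox co-repressor of Smad complexes, measured 34.1, 18.7, 34.3 and 37.0 CPM for WT 1 to 4, against 23.0, 31.1 and 19.0 CPM for Srp72+/- 1 to 3. The 3 WT libraries other than WT 2 lay above all the rest. Skil (chromosome 3, 31095058 to 31122577, plus strand), which encodes SnoN and is a known target of the pathway, measured 52.9, 44.4, 134.1 and 62.4 CPM for WT 1 to 4, against 71.7, 68.5 and 46.2 CPM for Srp72+/- 1 to 3. WT 3 stood far above the others, which overlapped between the groups, and the log2 fold change was -0.24 with it and 0.20 without it.

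Most of the Skil reads of WT 3 were assigned to an annotated retained-intron transcript. That transcript took 58.4% of the Skil reads in WT 3 and between 7.11% and 34.5% in the other 6 libraries, which is 1633 reads in WT 3 and 64 to 465 in the others. The main coding transcript had 742 reads in WT 3, within the 418 to 953 reads of the rest. Another coding transcript was also highest in WT 3, with 339 reads against 57.9 to 193 in the others. On the TPM scale the retained-intron transcript took 26.9% of Skil in WT 3 (4.49% to 24.2% in the others), and that other coding transcript took 62.3% (43.2% to 61.4%). Junb, an immediate early gene and pathway target, was also highest in WT 3, at 98.1 CPM against 20.5 to 46.3 CPM in the other libraries, and its relation to the Skil level was not tested.

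Ski, the founding gene of that family, lay between 46.4 and 86.8 CPM among WT and from 48.7 and 65.4 CPM in Srp72+/-. Tgif2 lay between 0.512 and 8.24 CPM, with WT 2 and Srp72+/- 1 (0.847 CPM) far below the others.

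The 3 ubiquitin ligase genes had fitted log2 fold changes of -0.21 to -0.01. Trim33 (chromosome 3, 103279293 to 103358775, plus strand), which encodes TIF1-gamma, a ligase and chromatin reader that binds phosphorylated Smad2 and Smad3 and can limit Smad4, measured 93.6, 99.7, 96.1 and 94.7 CPM for WT 1 to 4, against 87.2, 82.1 and 116.4 CPM for Srp72+/- 1 to 3. It had the smallest coefficient of variation of the tested members, 11.4%, and WT 2 was close to the rest of its group. The fitted fold was 0.992 (interval 0.719 to 1.37). Smurf2 (chromosome 11, 106820066 to 106920715, minus strand), which encodes a ligase that targets receptors and Smads, measured 74.1, 44.2, 61.8 and 76.7 CPM for WT, against 56.3, 54.2 and 73.5 CPM in Srp72+/-. Smurf1, its close relative, measured 17.4, 11.6, 22.8 and 13.5 CPM for WT, against 11.01, 17.4 and 14.0 CPM in Srp72+/-.

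The members varied in how they stood in WT 2. WT 2 was the lowest of 7 libraries for 18 of the 34 tested members, against 27.6% of all tested genes, and the highest for 6 (Inhba, Lrrc33, Tgfbr1, Acvrl1, Bambi and Smad2), against 22.8%. It was under 0.5 of the mean of the other WT libraries for 13 of the 34, against 26.4%. WT 2 was over 2 times that mean for 2 of the 34 (Inhba and Acvrl1), against 16%. Srp72+/- 2 was the lowest for 6 (Tgfb1, Lrrc33, Tgfbr1, Smad2, Smad4 and Trim33), against 9.82%. For 10 of the 34 WT 2 was the lowest and Srp72+/- 1 the second lowest, against 9.57% of all tested genes. The median ratio of WT 2 to the mean of the other WT libraries was 0.595 for the members, 0.925 for all tested genes and 0.036 for the 15 LT-HSC markers. The ratio was under 0.1 for Ltbp3, Bmp4, Tgfbr3, Tgif2 and Tgfb3, and close to 1 for Trim33 (1.05), Smad2 (1.12), Tgfb1 (1.11) and Smad4 (0.886).

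**Figure D4:**
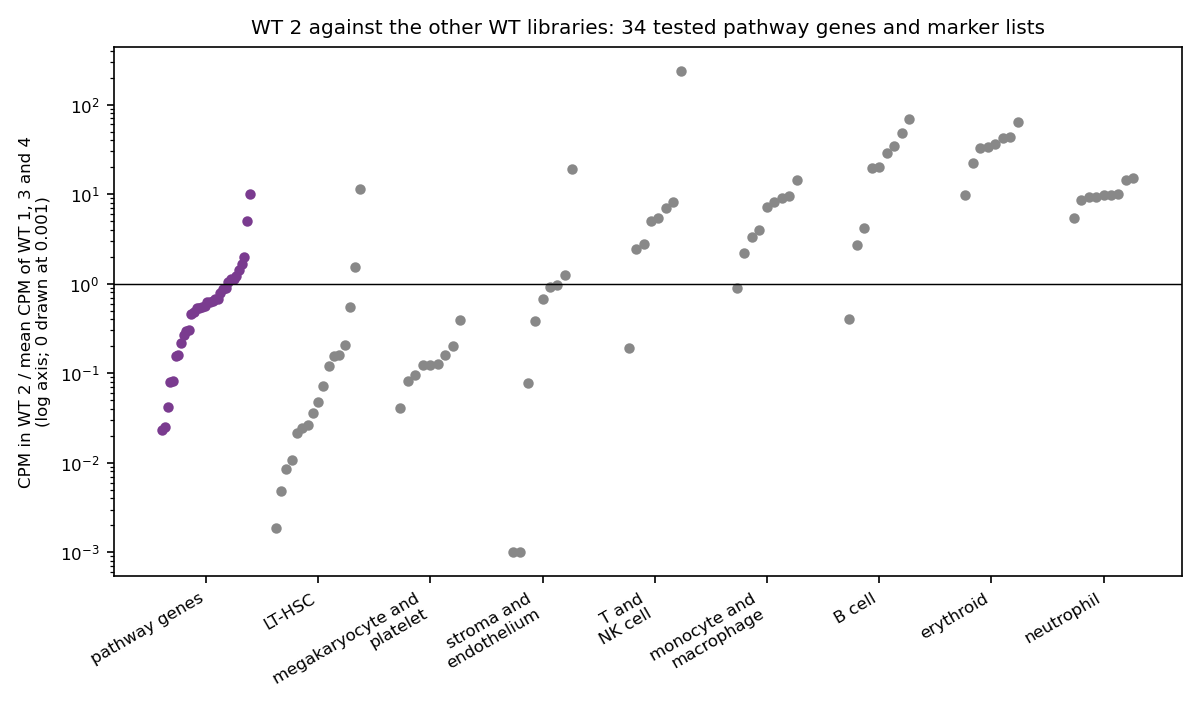
Ratio of CPM in WT 2 to the mean CPM of WT 1, 3 and 4 (y axis, log scale, line at 1) for the 34 tested pathway genes (purple) and for marker genes of each cell type (grey, genes at 0 in the other WT libraries left out). The pathway genes run from 0.023 (Ltbp3) to 9.95 (Inhba) and overlap the LT-HSC markers, which are mostly below 1. The megakaryocyte and platelet markers are all below 1, and the erythroid and neutrophil markers are all above 1.

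Beyond the 39 members, 100 other genes of the pathway were looked up, of which 67 were tested and 0 passed the FDR threshold in edgeR. Of the 67, 24 were fitted higher and 43 lower in Srp72+/- (median -0.08), and 3 had an unadjusted p under 0.05, against 1.8% of all tested genes. Libraries did not overlap for 4 of them, against 3.57%. Of these, Chrdl1 and Bmp8b passed the filter on low counts only through the 3 Srp72+/- libraries, where they were higher. Their separation follows in part from the filter and is given as values alone. Both are among the 67, so the counts of 3 and 4 genes are not read as results about the pathway. The lowly expressed Chrdl1, a BMP antagonist gene, measured 0, 0.384, 0 and 0 CPM for WT 1 to 4, against 1.32, 2.86 and 0.970 CPM for Srp72+/- 1 to 3. Itgb6, which encodes an integrin chain that activates latent TGF-beta, was at 0.703 to 1.01 CPM for WT, against 1.43 to 3.03 CPM in Srp72+/-. Bmp8b, a ligand gene, was at 0.280 to 0.512 CPM and 0.530 to 1.03 CPM. Ldlrad4, which encodes an inhibitor that keeps Smad2 and Smad3 from the receptor, was at 1.01 to 1.75 CPM for WT, against 0.303 to 0.741 CPM in Srp72+/-. It reached the filter level in 4 WT but only 2 Srp72+/- libraries, so its separation may also follow in part from the filter. The levels of these 4 genes correspond to at most 99.8 reads in a library, so counting error is large.

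Among receptor adaptors the smallest p values belonged to Pmepa1 (log2 fold change -1.39), Tab2 (-0.18) and Zfyve16 (-0.30), and among Smad partners to Ldlrad4, Wwp1 (-0.47) and Tob1 (-0.81). None of them passed the test.

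Genes known as targets of TGF-beta or BMP signalling were a list of 22, of which 12 were tested. All 12 were fitted lower in Srp72+/- (median -0.66 on the log2 scale), 2 had an unadjusted p under 0.05, and 0 passed the FDR threshold in edgeR. Over all tested genes 50.7% were fitted lower, 0.788% were lower with an unadjusted p under 0.05, and 1.49% were lower without overlap, as 2 of the 12 were (Bhlhe40 and Id1). Id1 reached the filter level in 4 WT but only 2 Srp72+/- libraries. Its separation may follow in part from the filter, so the count of 2 without overlap is not read as a result about the targets. Without WT 2, 9 of 12 were lower (median -0.51), without WT 3, 11 of 12 (median -0.42), and with sample quality weights in limma 7 of 12 (median -0.33). Bhlhe40, a clock-related repressor gene, measured 28.2, 30.9, 85.5 and 34.1 CPM for WT 1 to 4, against 11.8, 22.7 and 22.7 CPM for Srp72+/- 1 to 3, lower in each Srp72+/- library (log2 fold change -1.23, edgeR unadjusted p = 0.030, adjusted p = 0.9998). Id1, a BMP target that blocks differentiation factors, measured 2.07, 3.52, 17.4 and 3.91 CPM for WT, against 1.70, 1.07 and 0 CPM in Srp72+/-, also without overlap (edgeR, unadjusted p = 0.064). WT 3 was the highest library for both, as it was for Junb and Skil. Col1a1, a collagen chain gene, had an unadjusted p of 0.041 in edgeR with overlapping groups, and its WT levels ran from 1.12 to 27.0 CPM against 0.698 to 2.60 CPM, and without WT 4 the p was 0.146 in edgeR. Cdkn1c, which encodes the cell cycle inhibitor p57 and is known as a TGF-beta target in stem cells, measured 19.5, 0.384, 4.32 and 17.4 CPM for WT, against 9.002, 12.5 and 7.95 CPM in Srp72+/-, with overlapping groups. Cdkn1c, Junb and Eng were chosen for the text after their values were seen.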

How the data were processed

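Per the labels' protocols, cells were sorted into lysis buffer, and column-purified RNA was amplified (Ovation RNA-seq V2) before TruSeq V2 library preparation. The deposited tables hold, per transcript, estimated counts of reads (expected counts) and TPM, made with Salmon 0.12.0 on mm10 and GRCm38.p6 per the submitters' processing notes. Neither the strand setting nor the transcript release is given in the sources used here.

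Of 136288 transcripts, 136176 matched GENCODE M21. Counts and TPM were summed per gene, counts were rounded, and Lrrc33 was matched through its synonym Nrros. Of 53458 genes, 20314 passed filterByExpr (minimum count 10, minimum total 15). Genotypes were compared over all of these with edgeR 4.0.16 in R 4.3.3 (TMM, quasi-likelihood, robust) with Benjamini-Hochberg adjustment (limma 3.58.1 and DESeq2 1.42.0 served as alternatives). The procedure was tested on simulated data with larger changes than those fitted for the members. That test therefore does not show how often changes of the members' size would be found. The members and lists were chosen with earlier results of these data known. Described library by library were, in each role, the 2 members with the highest mean TPM and the one with the smallest p, plus any with p under 0.05 or separated groups. From each list of other genes the 3 smallest p values were named. Genes overlapping others on the opposite strand are uncertain, among them Tgfb3, Ltbp3, Acvr2a, Bmp6, Tgif2, Inhba, Bmp4, Acvrl1 and Tgfbr3. Tgfbr3 also overlaps genes on its own strand, with up to 2136.6 reads against its own 18345.5. Reads carry no molecular identifiers, so the upper limit from 3 counts covers counting error alone. Alternatives are described in the closing section.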

Additional observations from a re-analysis of the deposited data

Results flagged for a closer look

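Of 22 tested members given library by library, 3 had a WT library far from the other 3 WT libraries on the log2 scale (0.1 CPM added), as judged by Dixon's ratio, which chance gives in about 1 in 20 groups. Tgfbr3 had 5.88 CPM in WT 2, and the other WT libraries had 130.9 to 159.2 CPM (ratio 0.940). Tgif1 had 18.7 CPM there, and the others had 34.1 to 37.0 CPM (ratio 0.879). Ltbp3, added after its values were seen, had 1.151 CPM there, and the others had 40.5 to 66.2 CPM (ratio 0.877). In WT 2 the 15 LT-HSC markers summed to 262 CPM.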

How the results depend on the processing

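No member passed an FDR of 0.05 under any alternative run (RLE scaling, no filter, a stricter filter, DESeq2, limma with quality weights, a transcript length offset, the replicate block, each library left out, and, added after seeing the data, leaving out both WT 2 and Srp72+/- 1). Over all genes DESeq2 called 9, against 0 in edgeR, and leaving out 1 library gave 0 to 1. The count of members with separated groups was 1 with all libraries (3.57% of all tested genes) and 1 to 5 when 1 library was left out. The 5 came without WT 2, where the share over all genes rose to 10.1%. It was 5 without both WT 2 and Srp72+/- 1 (18.2% of all genes tested there), and 0 in TPM. The shares over all genes for TPM and for the other libraries left out are not given here. Of 300 alternative log2 fold changes of the described members 274 kept their sign. The sign turned with quality weights for Tgfb1 (-0.23), Inhba (0.46) and Tgfbr3 (-0.31). With the length offset it turned for Fkbp1a (0.0698), Smad3 (-0.14) and Smurf2 (0.0347). Without both libraries it turned for Tgfbr3 (-0.0296), Bambi (0.0707) and Trim33 (0.0682). Leaving out 1 library gave -0.43 to 0.82 for Tgfb1, -1.85 to 0.65 for Inhba, -0.40 to 0.38 for Tgfbr3, -0.15 to 0.0591 for Fkbp1a, -0.0115 to 0.56 for Smad3, -0.18 to 0.0796 for Smad4, -0.42 to 0.20 for Skil, -0.22 to 0.01 for Smurf2 and -0.19 to 0.0669 for Trim33. The cause was not tested.

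The labels do not say whether equal replicate numbers pair the libraries. Deviations of same-numbered libraries correlated at -0.316, -0.162 and 0.00177 over genes, and the highest value was 0.395, for WT 2 with Srp72+/- 1. So few correlations cannot settle whether same-numbered libraries shared a batch. The fit with the replicate block holds libraries 1 to 3 of each group and so leaves out WT 4. It called 0 genes, the median of the members was -0.12 (-0.24 for the same libraries without the block), and the sign turned for Fkbp1a (0.0674) and Smurf2 (0.0262), as it did without the block (0.0591 and 0.0081).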
